A study of Mus musculus with 3 samples.

Results

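Genes known from monocytes and the cells that derive from them were examined in RNAseq libraries of immune cells sorted from mice with renal tumors. The 10 genes, out of 36835 with a value in each library, were Ly6c1, Ly6c2, Plac8, F13a1, Vcan, Fn1, Thbs1, F10, Hp and Gda. They were taken by name, with no threshold on their levels, but with earlier results of these data known. The samples came from BALB/C mice in which cells of Renca, a mouse renal carcinoma line, had been injected into the kidney, and the study describes them as a Renca derivative that carries Cherry and luciferase. In all, 3 libraries were sequenced, 1 for each sorted population. By their labels and the study's sorting gates, M1 stands for type-1 macrophages (F4/80 intermediate, CD11b high) and M2 for type-2 macrophages (F4/80 high, CD11b intermediate), both from tumors. By the same sources CD4 stands for CD4 T cells (TCRβ positive, CD4 positive) from spleens of tumor-bearing mice, although a second label names renal tumors as their origin. All mice carried tumors, cells of tumor-free mice were not analysed here, and the labels give day 14 in one place and day 16 in another for the harvest. Cells were pooled, with 30 tumors and 4 spleens named for the whole series. With 1 library per population no difference has a replicate check, so no test was made and each value below describes these libraries only.

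Monocytes are made in the bone marrow, circulate in blood and enter inflamed tissue and tumors, where they can become macrophages or dendritic cells. In mice the classical monocyte carries high surface Ly6C and the chemokine receptor CCR2, and both fade as the cell matures into a macrophage, while F4/80, complement C1q and scavenger receptors increase. Classical monocytes are also known for secreted matrix and clotting proteins, among them versican, fibronectin, thrombospondin 1, factor X and the factor XIII A chain. In bulk RNA of sorted cells, fewer cells of a type and less RNA per cell cannot be told apart.

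The names of the libraries were checked first. The 12 listed T-cell genes summed to 2064 FPKM in the library labelled M2, against 10.5 in M1 and 3.38 in CD4. FPKM are fragments counted per kilobase of a transcript and per 1000000 fragments mapped. The 16 listed mature macrophage genes, such as the F4/80 gene Emr1 and C1qa, summed to 435, 2180 and 10986 FPKM in M2, M1 and CD4, and all 16 were highest in the library labelled CD4. T-cell markers thus lay where the label says macrophages, and macrophage markers where it says T cells. The labels were kept as given, and every direction below is between libraries by their labels. Estimated depth was 59000000 to 75000000 fragments per library.

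The levels of the 10 genes depend on which rows of the deposited table are read. Cufflinks, which assembled transcripts in each library, left several rows for some transcript identifiers, and a row found in 1 library has a dash in the others. Here the first row with a value in all 3 libraries was kept for each identifier and rows were summed per gene, so that levels are in FPKM and are per length. Of the 49 rows of the 10 genes, 32 were kept and 17 were left out, 15 of which held a value in 1 library only. For the 10 genes, a sum over all rows that differs from the kept level is given beside it. Among all 12703 genes that reached 1 FPKM in a library, 18.4% had a sum over all rows at least 2-fold above the kept level in some library, on the log2(FPKM + 1) scale.

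Of the 10 genes, 8 were highest in the library labelled M1 and 1 each in those labelled CD4 and M2, and all 10 reached 1 FPKM in at least 1 library. Summed over all rows, 9 were highest in the library labelled M1, and F13a1 was still highest in that labelled CD4. A gene was called different where log2(FPKM + 1) differed by at least 1, which makes the difference of weakly expressed genes smaller than their ratio. Between the libraries labelled M1 and CD4, 6.60% of all genes that reached 1 FPKM were called higher in that labelled M1 and 6.37% lower. Each count of calls between these libraries over a gene list is to be read beside these shares. The share of all genes highest in each library was not computed, so counts of genes highest in a library have no such share beside them.

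**Figure D1:**
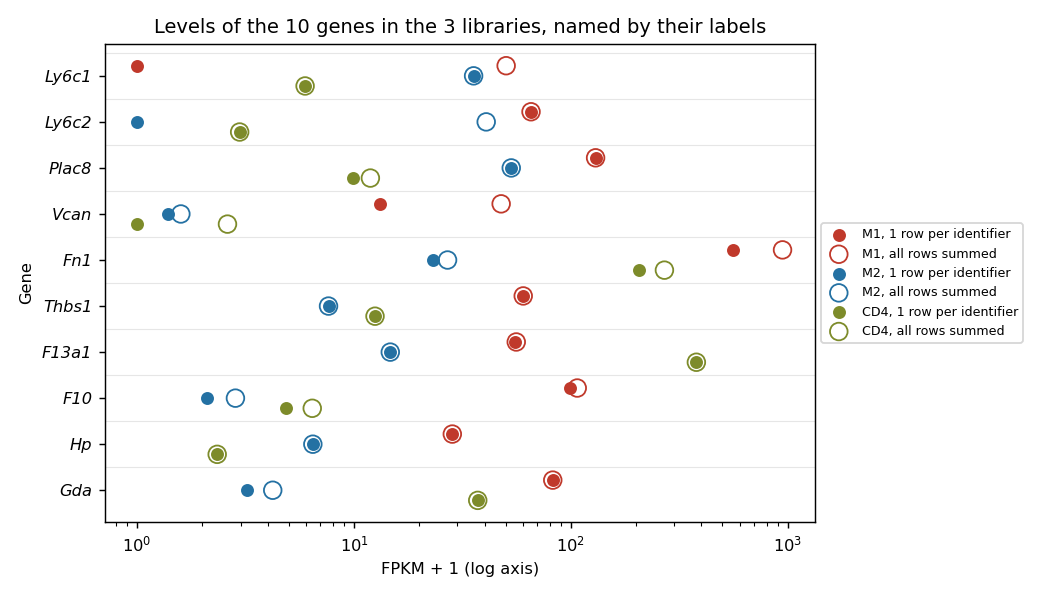
FPKM + 1 of each gene on a log axis, in the libraries labelled M1 (red), M2 (blue) and CD4 (green), with 1 row kept per identifier (filled) and all rows summed (open). Red lies to the right for most genes, F13a1 is highest in green at 378 FPKM, and filled and open points part most for Ly6c1, Ly6c2 and Vcan.

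Ly6c1 and Ly6c2 encode the GPI-anchored surface proteins that antibodies detect as Ly6C, the marker that separates classical from non-classical monocytes and that some T cells and endothelial cells also carry. The genes lie near each other on chromosome 15 of build NCBIM37 (mm9), Ly6c1 at chr15:74875447-74879260 and Ly6c2 at chr15:74938590-74942114, both on the reverse strand. Their coding sequences of 396 bases differ at 9 positions, so that 97.7% of the bases are the same. The first 300 coding bases of each are shown, from GENCODE transcripts of this build, because they show how little sequence separates the genes when fragments are assigned. Capitals mark the 7 positions that differ within this stretch.
Ly6c1: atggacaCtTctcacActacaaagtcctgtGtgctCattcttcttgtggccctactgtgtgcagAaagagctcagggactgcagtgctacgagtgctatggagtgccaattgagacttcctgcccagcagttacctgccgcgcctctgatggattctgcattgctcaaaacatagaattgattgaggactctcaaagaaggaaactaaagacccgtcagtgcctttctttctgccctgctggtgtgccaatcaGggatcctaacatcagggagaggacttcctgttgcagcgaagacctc
Ly6c2: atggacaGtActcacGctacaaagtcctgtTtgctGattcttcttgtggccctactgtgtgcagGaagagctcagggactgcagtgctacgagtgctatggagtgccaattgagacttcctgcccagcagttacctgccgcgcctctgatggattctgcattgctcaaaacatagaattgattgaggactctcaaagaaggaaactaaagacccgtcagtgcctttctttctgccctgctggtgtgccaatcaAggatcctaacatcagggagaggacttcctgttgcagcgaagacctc
Counted from the A of the start codon, with the base of Ly6c1 first, the differences are C8G, T10A, A16G, G31T, C36G, A65G and G254A, followed by T327C and G376A beyond the stretch shown. Between positions 65 and 254 a read has nothing to tell the genes apart. Of the 790 stretches of 51 bases in the Ly6c1 transcript, which is the read length, 31.3% are also in the Ly6c2 transcript, and 33.1% of the 746 stretches in Ly6c2 are in Ly6c1.

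Ly6c2 was at 64.5 FPKM in the library labelled M1 and 1.97 in that labelled CD4, and it was listed at 0 in that labelled M2. Ly6c1 was at 34.6 FPKM in the library labelled M2 and 4.95 in that labelled CD4, and it was listed at 0 in that labelled M1. Read this way, each of the libraries labelled M1 and M2 had 1 gene of the pair and lacked the other. The left-out rows fill both zeros, with 49.3 FPKM for Ly6c1 in the library labelled M1 and 39.7 FPKM for Ly6c2 in that labelled M2. A level listed at 0 is therefore not an absence here. Among the 7038 genes with at least 10 FPKM in some library, 352 were listed at 0 in another, and 163 of these had a left-out row of at least 1 FPKM in the library at 0. Summed as 1 feature, the pair was at 64.5, 34.6 and 6.92 FPKM in the libraries labelled M1, M2 and CD4, and at 114, 74.3 and 6.92 FPKM over all rows. The order M1, M2, CD4 held in both sums. The ratio of M1 to CD4 for the pair was 9.32, or 16.5 over all rows, while that of M2 to M1 was 0.537, or 0.653 over all rows. The library with T-cell markers thus carried the pair at more than 5 times the level of the library labelled CD4, with a ratio of 5.01, or 10.7 over all rows.

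**Figure D2:**
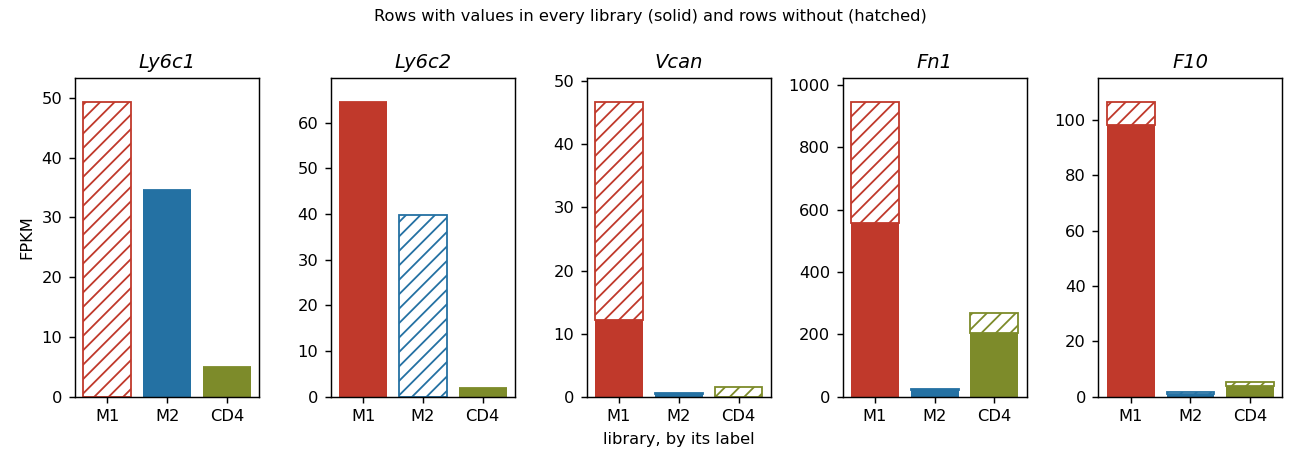
FPKM of 5 genes by library, split into rows with a value in every library (solid) and rows without (hatched). The hatched part is the whole level of Ly6c1 in M1 and of Ly6c2 in M2, and most of that of Vcan in M1.

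Of 12 listed neighbours and relatives of the pair 3 reached 1 FPKM, too few to set 0 calls between the libraries labelled M1 and CD4 apart from the share over all genes. Ly6e was listed at 0 in each library, with 106 FPKM in a left-out row of the library labelled M2. Ly6a, which encodes the surface protein Sca-1, was at 39.3 FPKM in the library labelled M1, 96.5 in that labelled M2 and 41.3 in that labelled CD4. Ly6g, which marks neutrophils, was at 0.0482 FPKM in the library labelled M1 and 0.0916 in that labelled CD4, and it was listed at 0 in that labelled M2, where its rows summed to 1.26 FPKM. Endothelial cells can carry Ly6c1, and the 8 endothelial genes on a list summed to 6.23 FPKM in the library labelled M1, 42.1 in that labelled M2 and 7.25 in that labelled CD4. Pecam1, which leukocytes also carry, made up 35.0 FPKM of the sum in the library labelled M2. The endothelial cadherin gene Cdh5 was at 0.191, 0.533 and 0.617 FPKM in M1, M2 and CD4. Over all rows Cdh5 was at 0.604, 1.78 and 1.05 FPKM, highest in the library labelled M2. The part of endothelial cells and T cells in the level of the pair was not tested.

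Plac8 encodes a small cysteine-rich protein of classical monocytes that neutrophils and some lymphocytes also make, and lies at chr5:100982744-101001264. It was at 129 FPKM in the library labelled M1, 52.1 in that labelled M2 and 8.91 in that labelled CD4. The 3 levels were well apart, with M1 14.5 times CD4 and M2 5.84 times CD4. Over all rows Plac8 in the library labelled CD4 was at 10.9 FPKM, and these ratios were 11.8 and 4.76. Plac8 and the Ly6c pair shared this order, in which the library with T-cell markers came second.

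The matrix genes Vcan, Fn1 and Thbs1 were each highest in the library labelled M1. They lie at chr13:89794915-89882117, chr1:71632094-71699774 and chr2:117937612-117952869. Fn1 encodes fibronectin, a matrix glycoprotein bound by integrins, and was at 558 FPKM in the library labelled M1, 206 in that labelled CD4 and 22.2 in that labelled M2. Its level in the library labelled M1 was above that of 99.6% of the genes that reached 1 FPKM. Over all rows the levels were 945, 269 and 26.0 FPKM, and the ratio of M1 to CD4 rose from 2.71 to 3.51. Thbs1, which encodes the adhesive glycoprotein thrombospondin 1, was at 59.3 FPKM in the library labelled M1, 11.5 in that labelled CD4 and 6.63 in that labelled M2. Vcan, which encodes the proteoglycan versican, was at 12.2 FPKM in the library labelled M1 and 0.395 in that labelled M2, and was listed at 0 in that labelled CD4. Over all rows Vcan was at 46.7, 0.591 and 1.61 FPKM in the order M1, M2 and CD4, so that most of its level in the library labelled M1 lay in a left-out row of 34.5 FPKM. Fibroblasts make the same matrix proteins, and 4 of their 9 listed marker genes reached 1 FPKM. All 4 were lower in the library labelled M1 than in that labelled CD4, beside 6.37% of all genes. The 9 genes summed to 8.44 FPKM in the library labelled M1, 33.3 in that labelled CD4 and 11.2 in that labelled M2. Of these, Col1a1 had 1.58 FPKM in M1, 7.96 in CD4 and 2.02 in M2. In kept rows Pdgfrb, under 1 FPKM, was highest in M1 at 0.863, but this order rests on a listed 0 in CD4. Summing all rows of Pdgfrb turned this to 1.44 FPKM in CD4, against 0.863 in M1 and 0.643 in M2. The 12 listed kidney epithelial genes summed to more, at 122, 205 and 99.2 FPKM in the libraries labelled M1, M2 and CD4. Of the 10 of them that reached 1 FPKM, 6 were highest in that labelled M2 and 2 in each of the others. The part of fibroblasts and of kidney epithelial or tumor cells in the levels of Vcan, Fn1 and Thbs1 was not tested.

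The Fn1 transcripts in the annotation differ by alternative exons that encode extra fibronectin type III repeats. Transcript Fn1-202 has neither extra exon, Fn1-203 has the 270-base exon known as EDA, and Fn1-201 has it together with the 273-base exon known as EDB. EDA-containing fibronectin is typical of tissue repair, and plasma fibronectin lacks it. The EDA exon lies at chr1:71650234-71650503 of NCBIM37 on the reverse strand and is shown because it is what separates the rows below.
Fn1 EDA exon: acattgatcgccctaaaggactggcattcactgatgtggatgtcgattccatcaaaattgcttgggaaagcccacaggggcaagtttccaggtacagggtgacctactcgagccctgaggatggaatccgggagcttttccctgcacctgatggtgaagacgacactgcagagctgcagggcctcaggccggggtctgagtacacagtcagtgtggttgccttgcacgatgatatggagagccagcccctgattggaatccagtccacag
Fn1-202 was at 385 FPKM in the library labelled M1, 176 in that labelled CD4 and 22.2 in that labelled M2. Fn1-203 was at 173 FPKM in the library labelled M1 and 29.2 in that labelled CD4, and it was listed at 0 in that labelled M2. The EDA transcript thus made up 30.9% of the Fn1 level in the library labelled M1 and 14.2% in that labelled CD4. Fn1-201 was listed at 0 in the kept row of each library. Left-out rows carrying its identifier held 387 FPKM in the library labelled M1, 63.8 in that labelled CD4 and 3.79 in that labelled M2. The exons of these rows are not given in the table, so the EDA share covers the kept rows only.

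Fn1, Thbs1 and Vcan act through receptors and partners on the cell surface. Of 20 such genes on a list 14 reached 1 FPKM, of which 3 were higher and 1 was lower in the library labelled M1 than in that labelled CD4, beside 6.60% and 6.37% of all genes. The higher ones were Cd36, a thrombospondin receptor, at 10.8 against 3.51 FPKM and 40.4 against 12.3 over all rows, Itga5, the alpha chain of the main fibronectin receptor, at 30.9 against 14.1 FPKM, and Itgb7, an integrin beta chain, at 14.8 against 0.730 FPKM. The lower one was Tlr2, a receptor for which versican is a ligand, at 11.2 against 47.0 FPKM, and over all rows it was not lower, at 58.9 against 47.0 FPKM. Cd44, a hyaluronan receptor, was at 72.1, 30.2 and 40.2 FPKM in the libraries labelled M1, M2 and CD4.

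The clotting genes F10 and F13a1 went in opposite directions. F10 encodes factor X, the precursor of the protease that turns prothrombin into thrombin. F10 was at 98.2 FPKM in the library labelled M1, 3.88 in that labelled CD4 and 1.10 in that labelled M2. The library labelled M1 exceeded that labelled CD4 by 25.3 times, and by 19.6 times over all rows, where the levels were 106, 5.42 and 1.84 FPKM. F13a1 encodes the A chain of factor XIII, the transglutaminase that cross-links fibrin, lies at chr13:36959047-37142113 and was at 378 FPKM in the library labelled CD4, while those labelled M1 and M2 had 54.3 and 13.7, the former at 55.0 over all rows. F13a1 alone of the 10 had its highest level in the library with the highest macrophage markers, where it exceeded 99.3% of the genes that reached 1 FPKM. Its ratio of M1 to CD4 was 0.144, close to the 0.132 of the apolipoprotein gene Apoe and the 0.210 of Emr1 on the mature macrophage list. For F10 the annotated transcripts F10-002 and F10-001 were at 67.4 and 30.8 FPKM in the library labelled M1 and at 2.47 and 1.41 FPKM in that labelled CD4, so that F10-002 made up 68.6% and 63.7% of the kept level.

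The gene beside F10 shared its pattern. F7, which encodes factor VII, the partner of tissue factor that activates factor X, ends 1498 bases before F10 starts on chromosome 8 (chr8:13026034-13035809 for F7 and chr8:13037308-13056676 for F10, both on the forward strand). F7 was at 65.9 FPKM in the library labelled M1, 3.61 in that labelled CD4 and 1.92 in that labelled M2, and over all rows the level in that labelled CD4 was 6.84. Of 23 other clotting and fibrinolysis genes on a list 16 reached 1 FPKM, of which 4 were higher and 1 was lower in the library labelled M1 than in that labelled CD4, beside the shares of 6.60% and 6.37% over all genes. Beside F7 the higher ones were F5 at 4.30 against 0.399 FPKM, the thrombin receptor family gene F2rl2 at 9.35 against 0.321 and the urokinase receptor gene Plaur at 106 against 18.3. The lower one was Pros1, which encodes the anticoagulant protein S, at 21.2 against 47.4 FPKM. Prothrombin (F2) was at 0.0294 FPKM or less in each library. Megakaryocytes and platelets carry F13a1 and Thbs1 too. Of 8 listed genes of these cells 2 reached 1 FPKM. Ppbp, a platelet chemokine gene, had the order of Thbs1, at 18.8 FPKM in M1, 2.72 in CD4 and 0.430 in M2. The defining genes Gp1bb and Gp9 were listed at 0 in each library and Itga2b was at 0.121 FPKM or less, or up to 1.42 FPKM over all rows, while Pf4, which macrophages can express, was at 81.1 FPKM in the library labelled M1, 9.60 in that labelled M2 and 174 in that labelled CD4. Treml1 was listed at 0 in each library, and its rows summed to 0.987 FPKM in M1 and 2.54 in CD4. The part of platelets in the levels of F13a1 and Thbs1 was not tested.

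Hp encodes haptoglobin, which binds free hemoglobin, lies at chr8:112099030-112103072 and was at 27.4 FPKM in the library labelled M1, 5.46 in that labelled M2 and 1.34 in that labelled CD4. The library labelled M1 was 20.5 times and that labelled M2 4.09 times the level of that labelled CD4, where about 134 fragments were estimated behind the value. Haptoglobin is also a product of hepatocytes and neutrophils. The hepatocyte genes on the list, Alb among them, were each under 1 FPKM in each library. The 14 neutrophil genes summed to 100 FPKM in the library labelled M1, 272 in that labelled M2 and 46.3 in that labelled CD4, with S100a8 at 19.0, 84.5 and 4.17 FPKM. These sums cover kept rows only. Elane, one of the 14, was under 1 FPKM in each kept level but at 366, 723 and 336 FPKM over all rows, above the kept sum in each library. In the kept rows Hp and the neutrophil sum were thus both above the library labelled CD4 in the other two. With Elane over all rows, the libraries labelled M1 and CD4 lie closer together. In kept levels, 8 of the 11 neutrophil genes that reached 1 FPKM were highest in that labelled M2, where Hp was not. Mmp8, at 15.9 FPKM in M1 and 1.38 in CD4, and Mmp9, at 5.99 in M1, 2.98 in M2 and 1.14 in CD4, were highest in the library labelled M1 as Hp was, and Csf3r, at 19.7, 8.40 and 25.3 FPKM in M1, M2 and CD4, was highest in that labelled CD4. The part of neutrophils in the level of Hp was not tested. Cd163, the receptor that takes up haptoglobin bound to hemoglobin, was highest in the library labelled CD4, where Hp was lowest, at 3.34 FPKM in the library labelled M1, 0.341 in that labelled M2 and 20.3 in that labelled CD4. Both Cd163 and Hp were lower in the library labelled M2 than in that labelled M1.

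Gda encodes guanine deaminase, which turns guanine into xanthine, lies at chr19:21465797-21547935 and was at 81.5 FPKM in the library labelled M1, 36.2 in that labelled CD4 and 2.21 in that labelled M2, the last at 3.22 over all rows. Its ratio of M1 to CD4, 2.25, was the smallest among those of the 10 genes called higher in the library labelled M1. Of 10 purine genes on a list 9 had a value and 8 reached 1 FPKM, and of these none was higher and 2 were lower in the library labelled M1 than in that labelled CD4, and 1 was lower over all rows, beside 6.60% and 6.37% of all genes. The lower ones were the purine salvage genes Pnp, at 15.2 against 40.2 FPKM, and Ada, at 7.66 against 23.1 FPKM, and over all rows Pnp was not lower, at 68.4 against 65.1 FPKM. Xdh, whose product takes xanthine on to urate, was at 41.2, 27.8 and 28.7 FPKM in the libraries labelled M1, M2 and CD4.

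Between the libraries labelled M1 and CD4, the pair with macrophage markers, 8 of the 10 genes were called higher in that labelled M1 and 2 lower. Of all genes that reached 1 FPKM, 6.60% were called higher and 6.37% lower. The higher ones were Ly6c2, Plac8, Vcan, Fn1, Thbs1, F10, Hp and Gda, and the lower ones F13a1 and Ly6c1. The call of Ly6c1 rests on a listed 0 and turned over all rows, where 9 genes were higher and 1 was lower. The median difference of the 10 genes was 2.94 in log2(FPKM + 1), or 3.26 over all rows, beside a median of 0.00 over all genes. Of 9 listed dendritic cell genes 8 reached 1 FPKM, of which 4 were higher and 0 lower in the library labelled M1. Itgax was at 124 against 29.5 FPKM and Cd209a at 23.7 against 0.653, while Flt3 was at 0.314 against 0.227, Zbtb46 at 1.42 against 1.21 and Clec9a at 0.392 against 0.532, and the part of dendritic cells in the levels of the 10 genes was not tested.

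**Figure D3:**
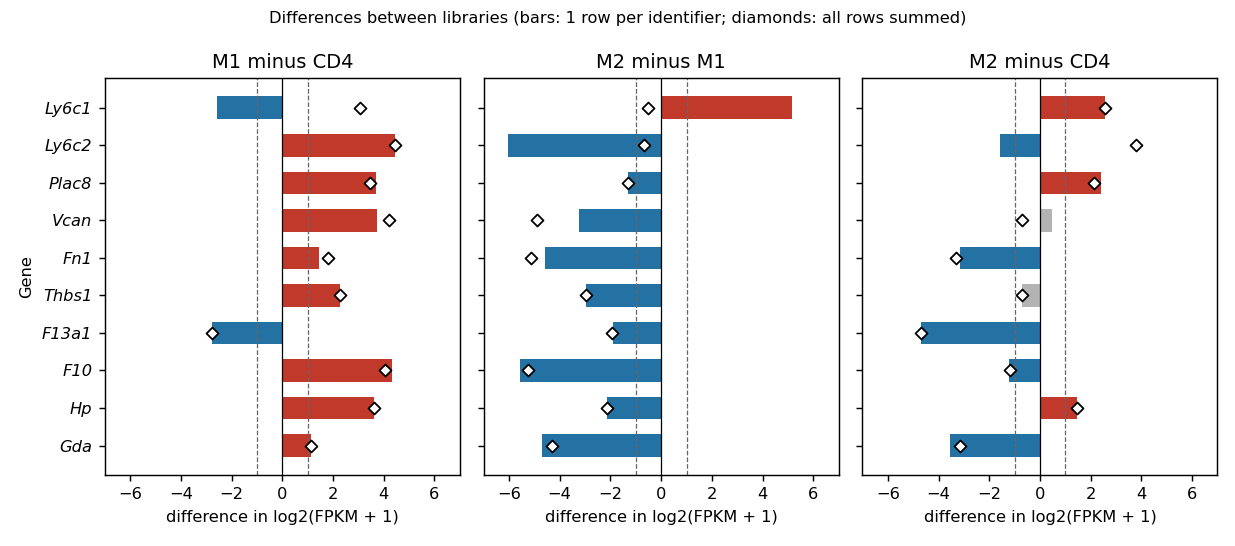
Difference in log2(FPKM + 1) of each gene for 3 pairs of libraries, with bars for 1 row per identifier (red at least 1, blue at most -1, grey between) and diamonds for all rows summed. In the first panel 8 bars point right and those of Ly6c1 and F13a1 left, and the diamonds of Ly6c1 lie across 0 from the bar in the first and second panels, as do those of Ly6c2 and Vcan in the third.

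Between the libraries labelled M2 and M1, 9 of the 10 genes were called lower in that labelled M2 and 1, Ly6c1, was called higher. Of all genes 14.2% were called lower and 16.6% higher. The median difference was -3.11, or -2.56 over all rows, beside 0.09 over all genes. Over all rows 8 were lower and none was higher, since Ly6c1 and Ly6c2 then differed by -0.50 and -0.69. Among those of the 10 genes above 0 in both, the lowest ratio of M2 to M1 was that of F10, at 0.0112. About 127 fragments were estimated behind its level in the library labelled M2. Over all rows it was that of Vcan, at 0.0126, with F10 at 0.0173. Plac8, at 0.404, had the highest ratio among those of the 10 genes called lower.

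Between the libraries labelled M2 and CD4 the 10 genes did not go one way, with 3 called higher in that labelled M2, 5 lower and 2 neither. Of all genes 17.0% were called higher and 15.0% lower. The higher ones were Ly6c1, Plac8 and Hp, and the lower ones Ly6c2, Fn1, F13a1, F10 and Gda. The call of Ly6c2 rests on a listed 0 and turned over all rows, where 4 genes were higher and 4 lower. Among those of the 10 genes above 0 in both, the widest gap was that of F13a1, with a ratio of 0.0363. This was not particular to F13a1, since C1qa and Apoe on the mature macrophage list had ratios of 0.0384 and 0.0379. All 16 genes of that list were lower in the library labelled M2 than in that labelled CD4, with ratios up to 0.383 for Slc40a1. The 3 pairs of libraries share libraries, so their counts are not independent of each other.

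The 10 genes were set beside other genes of monocytes and macrophages. These lists were chosen with earlier results of these data known, so they are no independent check of the group's name. Of 16 classical monocyte genes outside the 10, 15 reached 1 FPKM and 11 of these were highest in the library labelled M1. Between the libraries labelled M1 and CD4, 7 were called higher in that labelled M1 and 0 lower, with a median difference of 0.75. Ccr2, the receptor that brings monocytes out of the marrow, was at 526 FPKM in the library labelled M1, 183 in that labelled CD4 and 23.1 in that labelled M2, and S100a4 reached 684 FPKM in M1, 47.0 in CD4 and 95.7 in M2. The 8 genes of this list that were not called between the libraries labelled M1 and CD4 included Cd14 at 154 and 136 FPKM, the lysozyme gene Lyz2 at 5975 and 6687 FPKM and the Fc receptor gene Fcgr1 at 69.7 and 127 FPKM.

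Mature macrophage genes lay on the other side. All 16 had been highest in the library labelled CD4 in the check of names, so none could be higher in that labelled M1. Of the 16, 13 were lower and 0 were higher in the library labelled M1 than in that labelled CD4, with a median difference of -2.00. Folr2, a folate receptor of resident macrophages, was at 18.8 against 201 FPKM and the transcription factor gene Maf at 12.6 against 132 FPKM. Both lists were lower in the library labelled M2 than in that labelled M1, with medians of -2.60 for the classical monocyte genes and -1.99 for the mature macrophage genes. The 12 non-classical monocyte genes were mixed between the libraries labelled M1 and CD4, with 5 called higher, 2 lower and a median of 0.90. Ceacam1 was at 24.8 against 4.41 FPKM, and Cx3cr1, the fractalkine receptor gene that tissue macrophages also express, at 28.6 against 140 FPKM.

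**Figure D4:**
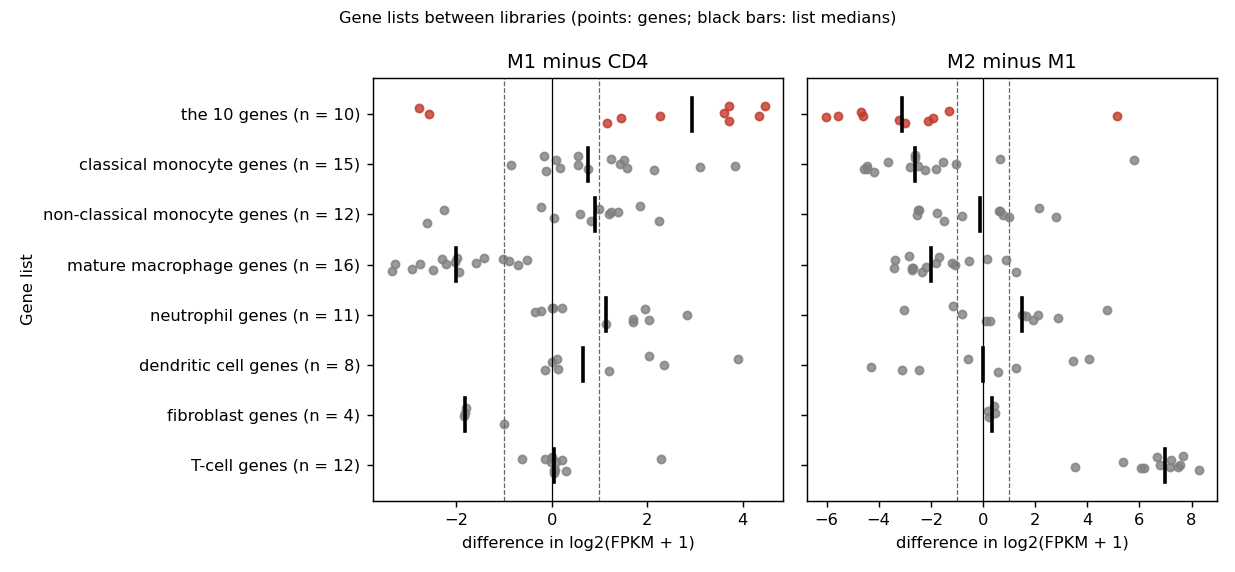
Difference in log2(FPKM + 1) of each gene that reached 1 FPKM, by gene list, for M1 minus CD4 (left) and M2 minus M1 (right), with list medians as black bars. On the left the 10 genes have a median of 2.94 and the mature macrophage genes one of -2.00, and on the right the 12 T-cell genes lie above 0 and the 10 genes have a median of -3.11.

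Genes with the most similar levels were sought among 6394 protein-coding genes at 10 FPKM or more in some library, by the distance of log2(FPKM + 1) over the 3 libraries. The closest to Fn1 was Ccr2, at a distance of 0.20, followed by Lilrb4 at 0.36. The closest to F13a1 were the chemokine gene Ccl12, at 47.2, 13.7 and 390 FPKM in the libraries labelled M1, M2 and CD4, and Fcgrt, each within 0.21. The closest to Gda were the myeloid receptor genes Pilra and Clec12a, to Thbs1 Plxnd1 and Slfn4, and to Hp Atp8b4 and Cd209a, at distances of 0.37 to 0.74. The closest to F10 were Ltb4r1 and its neighbour F7, at 0.66 and 0.74. For Ly6c2 the closest were Ccl17 and Retnla, which encode a chemokine and a secreted protein of alternatively activated macrophages, and for Plac8 Ywhaz and 3110003A17Rik, at distances of 1.02 to 1.34, so that none was near. Those of Ly6c1, L1cam and Mtch1, and of Vcan, Lsr and Hagh, each share with it a level listed at 0. The distances from Ly6c2 also rest on a listed 0, in the library labelled M2, where a left-out row held 39.7 FPKM. With 3 libraries such likeness is weak.

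Promoter sequences were looked at because 8 of the 10 genes were highest in the same library. RefSeq windows of build GRCm38.p6 were found for 7 of the 10 genes, in 11 windows, and the 250 bases before each transcription start were searched on both strands. PU.1 and C/EBP are the factors known for myeloid genes, and were searched as GAGGAA and TTNCNNAA. GAGGAA was present for Plac8, F13a1, Ly6c1, Ly6c2 and Gda, in 7 of the 11 windows, and in 23.3% of all 32851 windows of this length. TTNCNNAA was present for Plac8, F13a1, Ly6c2 and Gda, in 6 of the 11 windows, and in 36.8% of all windows. The windows of Ly6c1 overlap, as do those of Ly6c2, so a match can be counted more than once. F13a1, highest in another library, held both, and F10 and Vcan, highest in the library labelled M1, held neither. The windows of Plac8 at chr5:100572206-100572455 and Ly6c2 at chr15:75111972-75112221, both on the reverse strand of GRCm38.p6, are shown as examples that hold both, with matches in capitals.
Plac8: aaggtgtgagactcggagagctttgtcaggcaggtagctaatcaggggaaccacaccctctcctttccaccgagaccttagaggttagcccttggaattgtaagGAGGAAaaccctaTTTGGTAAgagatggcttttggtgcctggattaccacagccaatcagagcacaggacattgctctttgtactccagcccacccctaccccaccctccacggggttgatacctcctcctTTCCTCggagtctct
Ly6c2: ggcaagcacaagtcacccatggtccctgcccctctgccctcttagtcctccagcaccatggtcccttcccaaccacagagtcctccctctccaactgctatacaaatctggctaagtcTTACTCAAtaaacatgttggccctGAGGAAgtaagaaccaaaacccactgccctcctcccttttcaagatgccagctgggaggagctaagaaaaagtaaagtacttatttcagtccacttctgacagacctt
A match describes these letters and not a bound site.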

How the data were processed

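RNA of sorted cells was sequenced as paired reads of 51 bases. Per the study's methods, the authors aligned reads to mm9 with Bowtie and TopHat, assembled transcripts with Cufflinks guided by Ensembl, and deposited 1 table of FPKM values with a column per library; the submitters' processing notes also name Cuffdiff. How the assemblies were joined is not given in the sources used here. Columns were matched to samples by their headings.

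Of 92519 identifiers 97.6% were found in the GENCODE annotation of NCBIM37, the build the authors used. For each identifier the first row with a value in every library was kept, and FPKM were summed per gene. Genes with at least 1 FPKM in a library entered the comparisons, with a pseudocount of 1 and a difference of at least 1 on the log2 scale. The 10 genes and the gene lists were chosen with earlier results of these data known. The genes named were the 10, list members, transcripts of the 10 at 1 FPKM or more, and the 2 nearest in level to each. Depth, which FPKM do not hold, was estimated from the most frequent low product of FPKM and length over transcripts of 2500 to 8000 bases that are alone in their gene, so estimated fragments are approximate. The calculations were tested on simulated data. Python 3.11.15, numpy 2.4.6, pandas 2.3.3 and matplotlib 3.10.9 were used.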

Additional observations from a re-analysis of the deposited data

Results flagged for a closer look

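Rows that lack a value in some library were not part of the levels reported for the 10 genes, and 10 such values were at 1 FPKM or more. In the library labelled M1 they were 49.3 FPKM for the Ly6c1 transcript, 387 for Fn1-201, 34.5 for Vcan-201 and 8.18 for F10-201. In the library labelled M2 they were 39.7 FPKM for the Ly6c2 transcript, 3.79 for Fn1-201 and 1.01 for Gda-001. In the library labelled CD4 they were 63.8 FPKM for Fn1-201, 2.02 for Plac8-003 and 1.61 for Vcan-201. The structure of these assembled transcripts is not given in the table, and whether they are variants of the annotated ones was not tested.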

How the results depend on the processing

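No paired analysis was possible because each population had 1 library, and for the same reason no library could be left out. With all rows of an identifier summed, the log2 difference of Ly6c1 turned to 3.08 for M1 against CD4 and to -0.50 for M2 against M1, and that of Ly6c2 turned to 3.78 for M2 against CD4. With Ly6c1 and Ly6c2 summed, the difference was 3.05 for M1 against CD4 and -0.88 for M2 against M1. With a pseudocount of 0.1 the median of the 10 genes for M2 against M1 was -3.89. With each library rescaled to a total of 1000000, which lowers every level against the pseudocount, fewer genes were called. They were 6 for M1 against CD4, 6 for M2 against M1 and 5 for M2 against CD4, of which 5, 1 and 2 were higher. The medians were 1.05, -1.12 and -0.10. The shares of all genes called fell too. They were 0.866% higher and 0.567% lower for M1 against CD4, and 1.97% and 2.31% for M2 against M1. For M2 against CD4 they were 2.57% and 2.41%. The largest row per identifier, protein-coding transcripts only, scaling by the median ratio, no filter and a minimum of 5 FPKM moved none of the 30 single differences by 1.5-fold or more. Leaving out Ly6c1 and Ly6c2, a choice made after seeing the data, left 1 gene lower for M1 against CD4 and none higher for M2 against M1.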
